A study of Homo sapiens with 16 samples.

Results

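Proteases of the ADAM and ADAMTS families were read in human breast cell lines from every array probe set that the platform annotation assigns to 1 gene symbol equal to ADAMTS1, ADAMTS2, ADAMTS3, ADAMTS6, ADAMTS7, ADAM8, ADAM9, ADAM12, ADAM15 or ADAM19. This gave 15 probe sets of 22277 on the array, for 9 of the 10 genes. ADAMTS7 had no such probe set and was not analysed here. No filter on low values was applied, so all 15 probe sets were tested.

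The study measured gene expression on 16 Affymetrix Human Genome arrays, 2 in each of 8 groups, and asked what RECK, a membrane-anchored protease inhibitor, does in breast lines of different invasiveness. LM24175, which was derived from MDA-MB-231 for spread to the lung, and MDA-MB-231 itself are described as invasive and were stably infected with a constitutively expressed RECK construct or with an empty vector. Hs606T and Hs343T are described as poorly invasive and were transfected with an siRNA whose label names RECK (siRECK) or with a scrambled one (siSCR). The labels give neither a culture time nor whether an infected line was 1 clone, and nothing in them shows that both arrays of a group stem from different cultures. The p-values therefore cover the spread between arrays alone, and that spread may be technical. With 2 invasive lines of shared origin, 2 poorly invasive lines and a different kind of treatment in each, invasiveness cannot be told apart from line, vector and siRNA.

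ADAMs are membrane proteins with a metalloprotease domain and a disintegrin domain. They cut other membrane proteins near the cell surface, which releases growth factors, cytokines and adhesion molecules. ADAMTS proteases lack the membrane anchor, carry thrombospondin repeats, and act on matrix: some cut proteoglycans such as versican and aggrecan, and others trim the ends of procollagens. Both families are made as inactive precursors, are activated mostly by furin-like convertases, and are restrained by tissue inhibitors of metalloproteinases (TIMPs) and, for ADAM10, by RECK.

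The promoters of 4 members whose group means spanned at least 2 log2 units are shown because these genes are among the members that differ most between lines. Each is the 250 bases before the gene's start from RefSeq (GRCh38.p14), printed 5′ to 3′ on the gene's own strand, which is the minus strand for all 4. Capitals mark GC boxes (GGGCGG) and the CCAAT box (CCAAT), on either strand.
ADAMTS2, chr5:179345462-179345711: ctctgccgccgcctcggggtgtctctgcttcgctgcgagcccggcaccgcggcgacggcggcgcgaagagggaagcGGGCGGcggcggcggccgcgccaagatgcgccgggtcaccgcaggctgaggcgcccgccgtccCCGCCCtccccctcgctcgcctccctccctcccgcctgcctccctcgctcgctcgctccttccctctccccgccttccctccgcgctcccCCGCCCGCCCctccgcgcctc
ADAMTS3, chr4:72569222-72569471: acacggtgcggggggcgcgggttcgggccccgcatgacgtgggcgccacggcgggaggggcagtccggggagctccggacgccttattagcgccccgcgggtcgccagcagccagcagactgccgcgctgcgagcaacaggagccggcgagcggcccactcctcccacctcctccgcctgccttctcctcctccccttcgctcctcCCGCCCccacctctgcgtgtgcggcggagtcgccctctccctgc
ADAM8, chr10:133276869-133277118: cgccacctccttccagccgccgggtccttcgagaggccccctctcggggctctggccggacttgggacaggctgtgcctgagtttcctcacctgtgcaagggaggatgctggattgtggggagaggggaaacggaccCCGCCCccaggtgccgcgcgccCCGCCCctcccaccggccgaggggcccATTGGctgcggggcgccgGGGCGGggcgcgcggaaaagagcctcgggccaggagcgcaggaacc
ADAM12, chr10:126388478-126388727: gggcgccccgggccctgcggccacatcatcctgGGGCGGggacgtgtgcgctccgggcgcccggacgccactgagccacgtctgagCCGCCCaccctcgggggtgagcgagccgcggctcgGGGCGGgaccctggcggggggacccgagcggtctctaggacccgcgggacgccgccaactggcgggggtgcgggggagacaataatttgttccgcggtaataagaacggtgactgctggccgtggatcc

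The ADAMTS2 window held 4 GC boxes, of which the last 2 overlap, and was 80.0% G and C. The ADAM8 and ADAM12 windows each held 3 GC boxes, the ADAMTS3 window held 1, and the ADAM8 window also held 1 CCAAT box. Among 35116 RefSeq promoters of the same length, 42.6% held a GC box and 32.0% a CCAAT box, and the median was 58.0% G and C. Promoters were searched for 7 members. Among those not printed, ADAM15, which varied little between groups, held 6 GC boxes, and ADAM19 and ADAMTS6 held 0. None of the 7 held the letters TTCNNNGAA of a STAT site, TGANTCA of an AP-1 site or TATAAA of a TATA box, which 6.57%, 6.57% and 10.7% of the promoters held. ADAMTS1 was not in the table, and ADAM9 was left out of the promoter search.

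The arrays were alike in level, with medians from 6.42 to 6.56 log2 units and correlations from 0.994 to 0.998 between the 2 arrays of a group. RECK itself went against the siRNA labels by its brightest probe set, 205407_at. It read 11.31 and 11.24 in Hs343T labelled siRECK, against 6.07 and 5.52 in Hs343T labelled siSCR (44.5-fold higher). In Hs606T it was 5.29-fold higher under the siRECK label. The other RECK probe sets differed by 0.46 (adjusted p = 0.0016) and 0.27 (adjusted p = 0.200) in Hs343T. In Hs606T they differed by 0.17 and -0.10, and neither passed. The siRNA arms are therefore called by their labels throughout. Directions drawn from them follow the labels, where siRECK is the arm with the higher reading of the brightest RECK probe set. With the construct, that probe set differed by -0.42 (adjusted p = 0.188) in LM24175 and by 0.03 in MDA-MB-231. No RECK probe set passed with the construct in either line. All 12 fibroblast markers lay above the array median on both arrays of every Hs606T and Hs343T group, against 1 to 3 of 12 in the invasive lines. Of 11 epithelial markers, 6 to 7 lay above the median in the invasive lines and 2 to 4 in the Hs lines, and CDH1, the epithelial cadherin, read between 3.75 and 4.31 on all 16 arrays, below their lower quartiles. Leukocyte markers passed the median in 0 to 1 of 10 cases and endothelial markers in 0 to 1 of 8. The first LM24175 array with the RECK construct and the first MDA-MB-231 array with empty vector deviated from their replicates together. Their deviations had r = 0.449 across probe sets, which are not independent replicates. Values without the pair stand beside the member results it changed most. A fit without the pair, or without 1 array, leaves 1 array in a group. Calls from such fits rest on the spread of the other groups. In RNA from bulk cultures, fewer cells of a type and less RNA per cell cannot be told apart.

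Like the array as a whole, the members differed more between the invasive and the poorly invasive lines than under treatment. Differences are log2 levels of the first group minus the second, from 1 limma fit of all arrays with p-values adjusted over 22215 probe sets, and an adjusted p under 0.05 passed. Between the empty-vector arrays of the invasive lines and the siSCR arrays of the poorly invasive lines, 13 of 15 member probe sets passed, 3 higher and 10 lower, where 68.4% of all probe sets passed, 31.5% as higher and 36.9% as lower. Their median absolute difference was 1.08, against 0.377 over all probe sets. With 1 probe set per gene, 8 of 9 members passed between these lines, where 72.4% of all genes passed. The SE of this comparison is smaller than that of a treatment comparison (0.13 against 0.19 for ADAM12 by 202952_s_at). Its counts are therefore not like for like with those under treatment. With the RECK construct, 1 of 15 passed in LM24175, where 4.41% of all probe sets passed, and 0 of 15 in MDA-MB-231, where 0.239% passed. On arrays labelled siRECK, 0 of 15 passed in Hs606T (0.846% of all) and 1 of 15 in Hs343T (24.7% of all). At an unadjusted p under 0.05 the counts were 2 in MDA-MB-231 (11.3% of all probe sets) and 0 in Hs606T (10.7%), and with only each line's own arrays in the fit both stayed at 0.

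**Figure D1:**
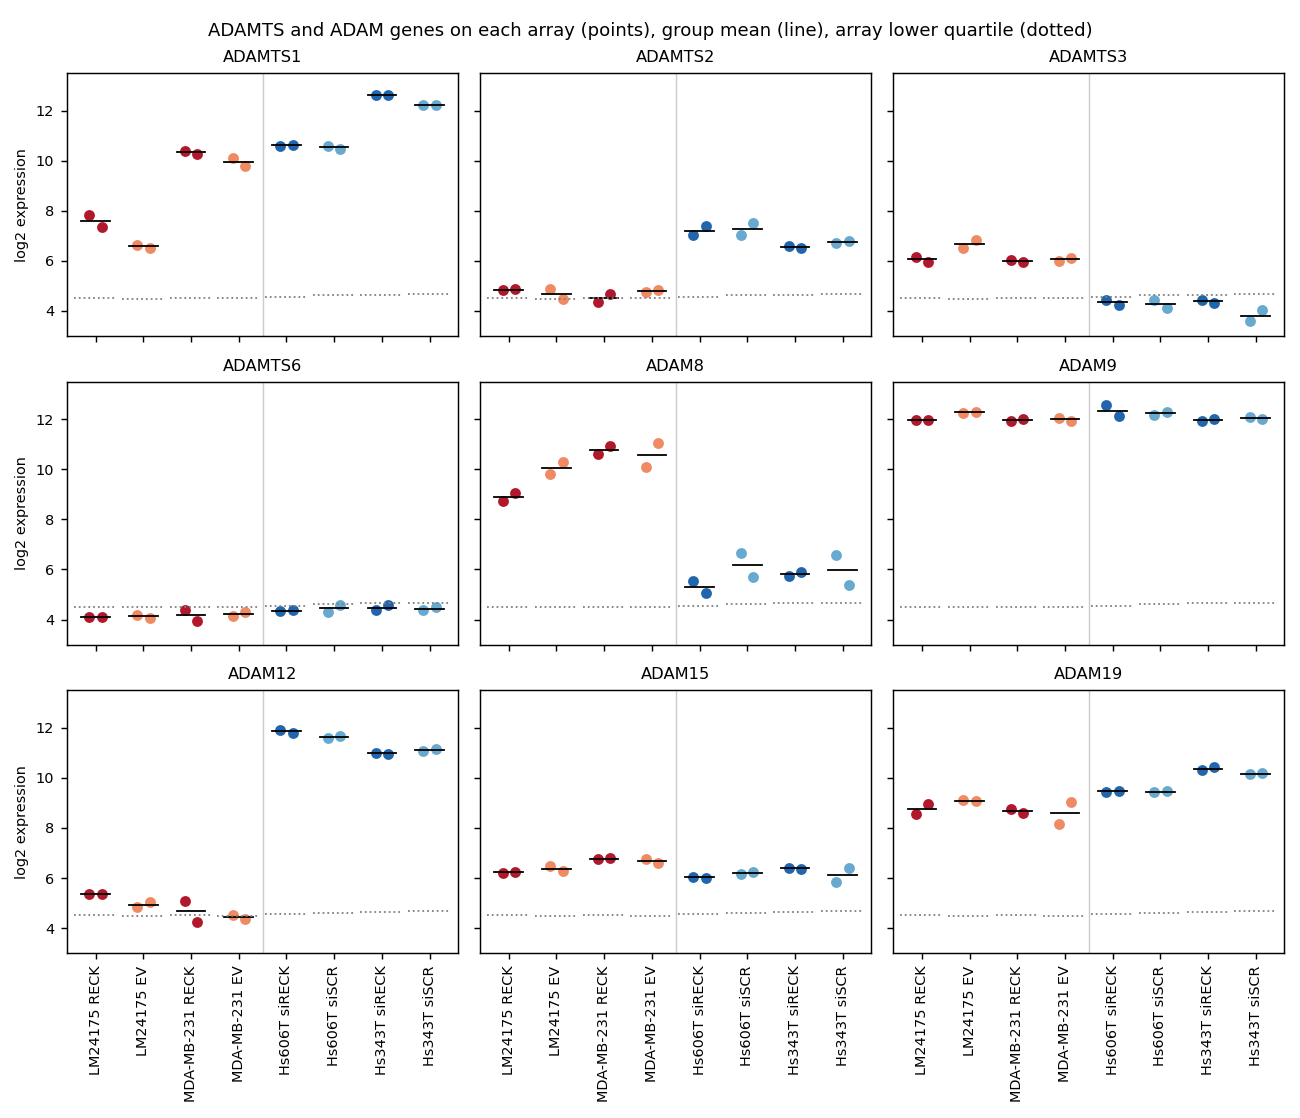
Log2 expression of the 9 measured members by their brightest probe set in 8 groups of 2 arrays. Points are arrays, solid lines group means and dotted lines the lower quartile of the array. ADAM12 and ADAMTS2 are higher in the Hs lines than in the invasive lines, ADAM8 and ADAMTS3 are lower there, and ADAM9 stays between 11.92 and 12.57 throughout.

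ADAMTS1 is a secreted protease that cuts versican and aggrecan and is known as an inhibitor of angiogenesis. With all arrays in the fit, it was the 1 member that passed with the RECK construct, in LM24175. Its probe set, 222162_s_at on chromosome 21, read 7.85 and 7.34 in LM24175 with the construct, against 6.63 and 6.53 with empty vector. The 2 groups did not overlap, which says little by itself with 2 arrays in each. The rise was 1.02 log2 units (SE 0.15, n = 2 and 2; adjusted p = 0.0024), which is 2.02-fold with a 95% interval from 1.61 to 2.53. In MDA-MB-231 it read 10.39 and 10.28 with the construct and 10.12 and 9.78 with empty vector, again without overlap, and the difference of 0.38 (SE 0.15) did not pass (adjusted p = 0.354).

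Both deviating arrays were the higher ADAMTS1 array of their group, by 0.51 in LM24175 with the construct and by 0.34 in MDA-MB-231 with empty vector. Without the pair, which leaves 1 array in each of these groups, the difference was 0.76 in LM24175 and 0.55 in MDA-MB-231. The difference between the 2 responses, LM24175 minus MDA-MB-231, was 0.63 (SE 0.21; adjusted p = 0.141) with all arrays and 0.21 without the pair. It was 0.80 without the second MDA-MB-231 empty-vector array and 0.89 without the second LM24175 construct array, again with 1 array left in the group. In LM24175 the rise was 0.76 to 1.27 with each of the 16 arrays left out in turn. It did not pass with its own 4 arrays alone in the fit (adjusted p = 0.0675).

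Among the members, ADAMTS1 had the largest difference between the related lines LM24175 and MDA-MB-231. The LM24175 level with empty vector (6.63 and 6.53) was 10.4-fold lower than that of MDA-MB-231 (10.12 and 9.78), with a 95% interval from 8.29 to 12.98 (log2 difference -3.37, SE 0.15; adjusted p = 4.2e-08). In the Hs lines it read 10.61 and 10.63 in Hs606T labelled siRECK and 10.61 and 10.47 in Hs606T labelled siSCR, groups that touch at this precision without overlapping. Hs343T held the highest levels, 12.63 and 12.65 labelled siRECK against 12.24 and 12.25 labelled siSCR. That difference of 0.39 (SE 0.15) missed the threshold (adjusted p = 0.0763). It stayed at 0.39 without the deviating pair, and it passed with only the Hs343T arrays in the fit (adjusted p = 0.0205). Between the siSCR arrays, Hs606T lay 3.26-fold below Hs343T (log2 difference -1.70, SE 0.15; adjusted p = 3.4e-06). All 4 empty-vector arrays of the invasive lines lay below all 4 siSCR arrays. The mean of the invasive lines was 8.74-fold lower than that of the Hs lines (95% interval 7.46 to 10.25; log2 difference -3.13, SE 0.10; adjusted p = 5.1e-11). These means join unlike lines, at 6.58 in LM24175, 9.95 in MDA-MB-231, 10.54 in Hs606T and 12.24 in Hs343T. The interval covers the spread between arrays and not that between lines. Along the order of ADAMTS1 levels none of the 7 pairs of neighbouring groups overlapped, with the narrowest gap between the Hs606T arms. With 2 arrays per group this describes the arrays and is not a test.

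ADAMTS2 and ADAMTS3 encode procollagen N-proteinases, which remove the amino-terminal propeptide of fibrillar procollagens. ADAMTS3 is also known to activate the lymphatic growth factor VEGF-C. The 2 genes ran in opposite directions across the lines. ADAMTS2 had 2 probe sets. By the brighter one, 214454_at, it read 4.89 and 4.49 in LM24175 and 4.76 and 4.82 in MDA-MB-231 with empty vector, against 7.03 and 7.51 in Hs606T and 6.71 and 6.78 in Hs343T labelled siSCR. All invasive arrays lay below all Hs arrays and close to the lower quartile, so a log2 difference is given without a fold: -2.27 (SE 0.13; adjusted p = 7e-09). The dimmer 214535_s_at gave -1.54 (SE 0.12; adjusted p = 1.1e-07).

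The 2 ADAMTS2 probe sets disagreed between the Hs lines. By 214454_at, Hs606T was higher than Hs343T by 0.52 (SE 0.18; adjusted p = 0.0449), and by 214535_s_at it was lower, at -0.58 (SE 0.16; adjusted p = 0.0175), so no direction is given for the gene. The first call was lost without either Hs343T array or the second Hs606T array (adjusted p from 0.109 to 0.352) and without the deviating pair (0.072), and the second without the second array of either line (0.178 and 0.0991). Neither probe set passed in a treatment comparison. The nearest was 214535_s_at in MDA-MB-231, where it read 4.65 and 4.68 with the construct and 4.19 and 4.32 with empty vector, a difference of 0.41 (SE 0.16; adjusted p = 0.359).

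ADAMTS3, by 214913_at, read 6.53 and 6.82 in LM24175 and 5.98 and 6.14 in MDA-MB-231 with empty vector. Its Hs levels labelled siSCR were 4.42 and 4.12 in Hs606T and 3.59 and 4.04 in Hs343T. All 8 Hs arrays lay below the lower quartile of their array, so the level there is dim and no fold is given. In the invasive lines it was 2.32 log2 units higher (SE 0.11; adjusted p = 1.7e-09). Among the invasive lines, LM24175 was higher than MDA-MB-231 by 0.61 (SE 0.16; adjusted p = 0.0205), a call lost at adjusted p = 0.109 without the first MDA-MB-231 empty-vector array, at 0.188 without the second LM24175 one and at 0.112 without the deviating pair (0.54).

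Between Hs606T and Hs343T labelled siSCR the difference of 0.45 (SE 0.16; adjusted p = 0.0484) was kept in 4 of the 16 fits that left out 1 array, at 0.23 to 0.68 (adjusted p from 0.0128 to 0.378). It was also lost under median centring (0.0602), trend and robust (0.0533), the replicate block (0.0719), with only its own arrays (0.156) and without the deviating pair (0.0611).

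Under treatment, ADAMTS3 in Hs343T passed within this dim range. It read 4.43 and 4.33 on arrays labelled siRECK, against 3.59 and 4.04 on those labelled siSCR. It rose by 0.56 log2 units (SE 0.16; adjusted p = 0.0212). The call was lost without the first siSCR array, where the difference was 0.34. It was also lost without the first siRECK array (0.51) and without the second (0.62). Each of these fits leaves 1 array in a group. In LM24175 the level was 6.16 and 5.97 with the construct and 6.53 and 6.82 with empty vector. That difference of -0.61 (SE 0.16) did not pass (adjusted p = 0.0531), but did with 1 probe set per gene (adjusted p = 0.0423), which tests fewer features. With the RECK construct, ADAMTS1 and ADAMTS3 lay on opposite sides of 0 in LM24175, with only ADAMTS1 past the threshold.

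ADAMTS6, by 220866_at, read between 3.95 and 4.59 and below the lower quartile on all 16 arrays. Its difference between invasive and poorly invasive lines was -0.26 (SE 0.10; adjusted p = 0.0366), and -0.11 (adjusted p = 0.355) after quantile normalization. The call was also lost without the first MDA-MB-231 array or the second array of LM24175, Hs606T or Hs343T (adjusted p from 0.102 to 0.15), and without the deviating pair (-0.22, adjusted p = 0.128). At such dim values no level of ADAMTS6 is given.

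**Figure D2:**
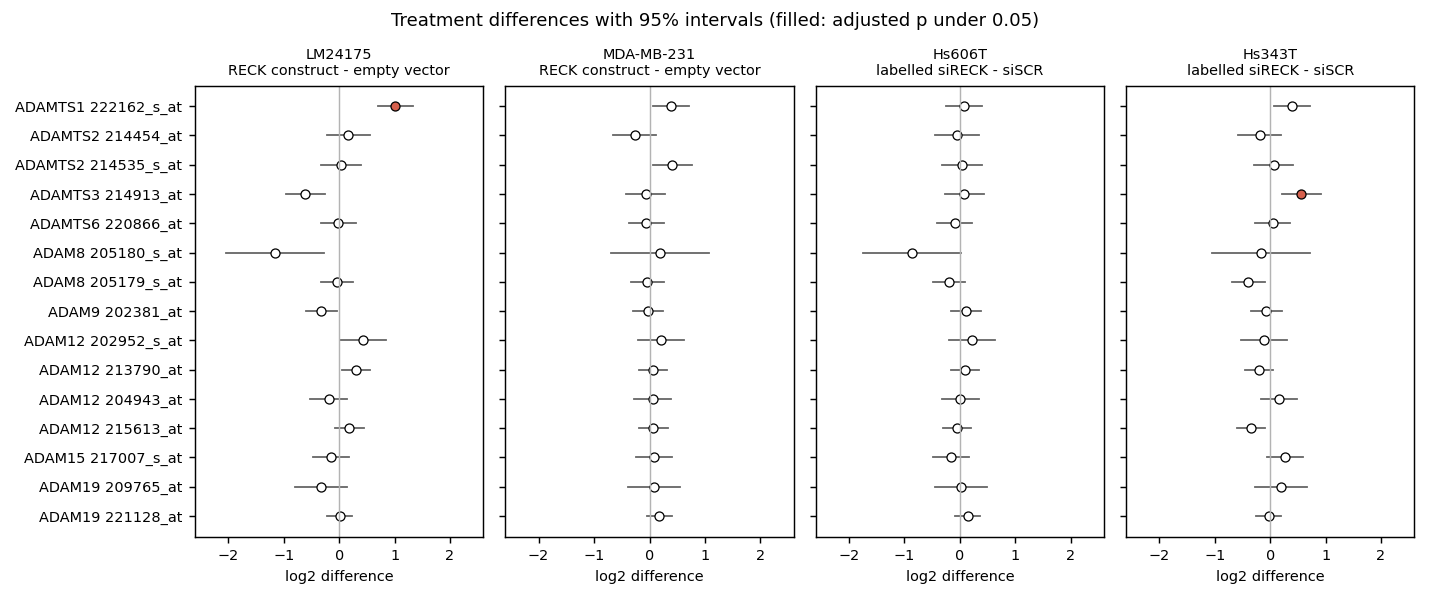
Log2 difference of each member probe set in the 4 treatment comparisons, with 95% intervals of the fit. Filled points have an adjusted p under 0.05. ADAMTS1 in LM24175 (1.02) and ADAMTS3 in Hs343T (0.56) are the filled points, and the ADAM8 probe set 205180_s_at has the widest intervals.

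Among the membrane-anchored members, ADAM8, a sheddase first described in leukocytes and linked in breast tumours to spread, marked the invasive lines. By 205180_s_at it read 9.82 and 10.28 in LM24175 and 10.11 and 11.04 in MDA-MB-231 with empty vector, against 6.66 and 5.69 in Hs606T and 6.56 and 5.38 in Hs343T labelled siSCR. The lowest invasive array lay above the highest Hs array. The invasive lines were 18.9-fold higher (95% interval 12.3 to 29.2; log2 difference 4.24, SE 0.29; adjusted p = 4.1e-08). The other probe set, 205179_s_at, read from 4.67 to 5.37 on every array and differed by only 0.12 (adjusted p = 0.291), so the 2 probe sets do not give the same picture. By that dimmer probe set Hs606T lay below Hs343T, at -0.46 (SE 0.13; adjusted p = 0.0192), a call lost without either Hs343T array or the second Hs606T array (adjusted p from 0.0714 to 0.147).

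ADAM8 had the largest spread between replicates of the family, up to 1.18 log2 units in Hs343T labelled siSCR and 0.93 in MDA-MB-231 with empty vector. In LM24175 it read 8.73 and 9.04 with the construct, below both empty-vector arrays (9.82 and 10.28). The 2.24-fold lower level (95% interval 1.21 to 4.14; log2 difference -1.16, SE 0.41) did not pass (adjusted p = 0.151), nor without the deviating pair (-1.01, adjusted p = 0.354) or in the fit of its own arrays (adjusted p = 0.0584). In MDA-MB-231 the levels were 10.62 and 10.92 with the construct and 10.11 and 11.04 with empty vector, and they overlap. In Hs606T the arrays labelled siRECK read 5.55 and 5.07, below those labelled siSCR at 6.66 and 5.69 (difference -0.87, SE 0.41), without passing. The Hs343T arms overlap, with 5.72 and 5.89 labelled siRECK and 6.56 and 5.38 labelled siSCR.

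ADAM12 (meltrin alpha), which exists in a membrane and a secreted form and cuts heparin-binding EGF and IGF-binding proteins, showed the largest line difference of any member. By 202952_s_at it read 4.86 and 5.02 in LM24175 and 4.54 and 4.37 in MDA-MB-231 with empty vector. In the Hs lines labelled siSCR it read 11.61 and 11.66 in Hs606T and 11.06 and 11.14 in Hs343T. The difference of the invasive lines from the Hs lines was -6.67 log2 units (SE 0.13; adjusted p = 4.8e-13), with no fold given because their levels lie at or near the lower quartile of the array. A further bright probe set, 213790_at, gave -6.51 (SE 0.08; adjusted p = 1e-14), and all 8 of its invasive arrays lay below the lower quartile. The remaining 2 probe sets were dim and differed by -1.08 (204943_at) and -0.78 (215613_at), both past the threshold.

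Between the Hs lines, ADAM12 was 2.39-fold higher in Hs606T than in Hs343T by 213790_at (11.14 and 11.12 against 9.89 and 9.86; log2 difference 1.26, SE 0.12; adjusted p = 5.5e-06). By 202952_s_at the difference was 0.53 (SE 0.19; adjusted p = 0.0508). Between LM24175 and MDA-MB-231 with empty vector, 213790_at differed by 0.35 (SE 0.12; adjusted p = 0.0595), and by 0.52 without the deviating pair, which leaves 1 MDA-MB-231 array. No ADAM12 probe set passed under treatment. In MDA-MB-231 with the construct 202952_s_at read 5.08 and 4.26. The difference from empty vector (0.21) became 0.62 without the second of these arrays, with 1 construct array left.

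ADAM19 (meltrin beta), known to process neuregulins, ran the same way at a smaller scale. By 209765_at it read 9.10 and 9.06 in LM24175 and 8.14 and 9.03 in MDA-MB-231 with empty vector, against 9.43 and 9.46 in Hs606T and 10.14 and 10.21 in Hs343T labelled siSCR. Every invasive array lay below every Hs array, and the invasive lines were 1.97-fold lower (log2 difference -0.98, SE 0.15; adjusted p = 9e-05). Hs606T lay below Hs343T by a difference of -0.73 (SE 0.21; adjusted p = 0.0211), lost when any 1 of the 4 siSCR arrays was left out (adjusted p from 0.0652 to 0.0951). The dimmer 221128_at had the same sign in both comparisons, at -0.33 and -0.32, and the second of these was lost without either Hs343T array or the first Hs606T array (adjusted p from 0.0516 to 0.217). LM24175 minus MDA-MB-231 gave 0.50 (adjusted p = 0.153). With 1 MDA-MB-231 empty-vector array left, it became 0.94 without the second and 0.05 without the deviating pair. There 221128_at gave 0.28 with all arrays and 0.37 without the pair.

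ADAM9 and ADAM15 varied little. ADAM9 (meltrin gamma), a broadly expressed sheddase read by 202381_at on chromosome 8, ranged from 11.92 to 12.57 over all 16 arrays. It passed in none of the 9 comparisons tested, with 1 difference at -0.32 (LM24175 with the construct minus empty vector, adjusted p = 0.216) and a line difference of 0.28 (LM24175 minus MDA-MB-231, adjusted p = 0.167). ADAM15 (metargidin), which carries an integrin-binding RGD motif, read from 5.84 to 6.78 by 217007_s_at. It was 1.29-fold higher in the invasive lines (log2 difference 0.37, SE 0.11; adjusted p = 0.0075). In Hs343T its difference of 0.27 did not pass with all arrays. It was 0.55 without the second siSCR array, which read 6.42 beside 5.84 on the first, the 1 siSCR array then left.

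**Figure D3:**
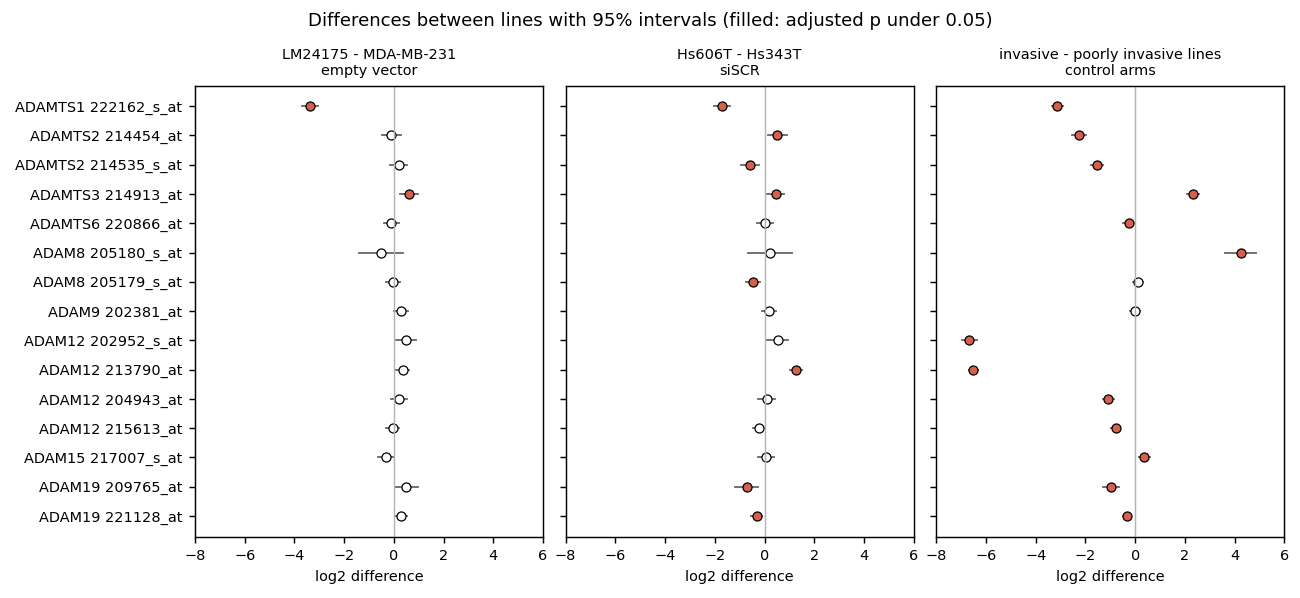
Log2 difference of each member probe set between lines in their control arms, with 95% intervals of the fit. Filled points have an adjusted p under 0.05. ADAM12 (-6.67 and -6.51) and ADAM8 (4.24) reach farthest between invasive and poorly invasive lines, and ADAMTS1 (-3.37) between LM24175 and MDA-MB-231.

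Within each kind of line the counts were smaller. Between LM24175 and MDA-MB-231 with empty vector, 2 of 15 member probe sets passed, ADAMTS1 lower and ADAMTS3 higher, where 16.3% of all probe sets passed. Between Hs606T and Hs343T labelled siSCR, 8 of 15 passed (3 higher, 5 lower), where 31.5% passed, 16.3% as higher and 15.2% as lower. These 8 were ADAMTS1, both probe sets of ADAMTS2, ADAMTS3, the dim ADAM8 probe set, 1 of ADAM12 and both of ADAM19. No member passed in the difference between the construct responses of the invasive lines (2.62% of all probe sets) or between the siRECK responses of the Hs lines (16.3% of all), with 3 (16.9% of all) and 0 (27.7% of all) at an unadjusted p under 0.05.

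The members with a span of at least 2 log2 units could be set beside other genes by the root mean square distance of 8 centred group means, over 2107 genes with such a span. The genes nearest to ADAM12 were KCNMA1 (0.30), DCN, the decorin gene and one of the fibroblast markers (0.34), and TBX3 (0.34). DCN read 5.34 and 4.53 in LM24175 with empty vector and 12.34 and 12.28 in Hs606T labelled siSCR. ADAMTS2 lay nearest to HSD17B1 (0.11), THNSL2 (0.14) and CLDN11 (0.16), and ADAMTS3 nearest to ME3 (0.17), NPAT (0.18) and CENPC (0.18). The genes nearest to ADAM8 were MYO5C (0.33), FOXA2 (0.35) and CYP1A1 (0.37). ADAMTS1 had no close neighbour, with PLCB4 at 0.55, SPP1 at 0.70 and EHD3 at 0.75. Groups of 1 line share their cells, so these distances mostly compare 4 lines.

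Of 9 further ADAMTS and ADAMTS-like genes measured of 21 listed, none passed in LM24175, MDA-MB-231, Hs606T or Hs343T, with 0, 0, 1 and 1 at an unadjusted p under 0.05. Of 12 further ADAM genes measured of 16 listed, 1 passed in LM24175 and 1 in Hs343T, where 5.37% and 27.8% of all 11963 genes passed (0.251% in MDA-MB-231 and 0.97% in Hs606T). That gene was ADAM17 in both lines. Between the invasive and the poorly invasive lines 5 of the 9 ADAMTS genes were lower and none higher, where 72.4% of all genes passed (34.0% as higher, 38.4% as lower), led by ADAMTS5, an aggrecanase (-1.83, SE 0.10; adjusted p = 4.6e-09). Of the 12 ADAM genes 4 were lower, led by ADAM23 (-2.37, SE 0.08; adjusted p = 8.3e-11), and ADAM17 was higher (0.43, SE 0.07; adjusted p = 0.0001). ADAM17 read 9.71 and 9.72 in LM24175 and 9.75 and 10.02 in MDA-MB-231 with empty vector, against 9.96 and 9.91 in Hs606T and 8.87 and 8.76 in Hs343T labelled siSCR, so Hs343T alone lay below both invasive lines. ADAM10, the other main sheddase beside ADAM17, read from 11.26 to 11.77 on all arrays.

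ADAM17, the sheddase known for releasing tumour necrosis factor and the EGF receptor ligand TGF alpha, passed in 1 line of each treatment design, Hs343T and LM24175. It did not pass in Hs606T or MDA-MB-231. By its brightest probe set, 213532_at, it read 9.79 and 9.85 on the Hs343T arrays labelled siRECK, against 8.87 and 8.76 on those labelled siSCR. It rose by 1.004 log2 units (SE 0.09; adjusted p = 6.3e-06), or 2.01-fold with a 95% interval from 1.74 to 2.31, and the other 2 probe sets gave 1.02 and 1.20, both past the threshold. In LM24175 it read 9.30 and 9.32 with the construct, against 9.71 and 9.72 with empty vector, and fell by 0.41 on the log2 scale (SE 0.09; adjusted p = 0.0322). The other 2 probe sets there, at -0.32 and -0.33, did not pass. The call was lost with only the LM24175 arrays in the fit (adjusted p = 0.129), with the replicate block (0.125) and in the mean of probe sets (-0.35, adjusted p = 0.0652). It was also lost without any 1 of the 4 LM24175 arrays, at -0.41 to -0.40, in fits that leave 1 array in a group.

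RHBDF2 (iRhom2), the partner that carries ADAM17 to the cell surface, passed in the same 2 comparisons. It read 7.38 and 7.36 on the Hs343T arrays labelled siRECK and 6.27 and 6.48 on those labelled siSCR, a rise of 0.99 (SE 0.12; adjusted p = 6e-05). In LM24175 it read 6.84 and 7.003 with the construct and 7.48 and 7.43 with empty vector, a fall (log2 difference -0.53, SE 0.12; adjusted p = 0.0287) that was lost without either empty-vector array or the first construct array (adjusted p from 0.145 to 0.186). TSPAN14, a tetraspanin that carries ADAM10, was the other of 7 trafficking partners to pass in Hs343T (0.41, adjusted p = 0.0242), where 27.8% of all genes passed. TGFA, the substrate, read 9.48 and 9.61 on the Hs343T arrays labelled siRECK and 8.20 and 8.09 on those labelled siSCR, and rose by 1.40 log2 units (SE 0.09; adjusted p = 1.2e-07), or 2.64-fold with a 95% interval from 2.32 to 3.01. Its differences of 0.35 in Hs606T (adjusted p = 0.100) and -0.27 in LM24175 (adjusted p = 0.117) did not pass. In Hs343T the rises of the 3 genes passed under every alternative run. On the same arrays all 27 measured genes of an interferon list rose, with a median difference of 6.65, and 20 of 27 in Hs606T, with a median of 1.34. CXCL11 had the largest rise in Hs343T (9.14, SE 0.48) and IFIT1 in Hs606T (3.14, SE 0.17). In LM24175 with the construct 2 of 27 rose and 2 fell, where BST2 rose by 0.88 (adjusted p = 0.0039) and OAS1 fell by 0.96 on the log2 scale (adjusted p = 0.0211). Their part in the ADAM17, RHBDF2 and TGFA differences was not tested.

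**Figure D4:**
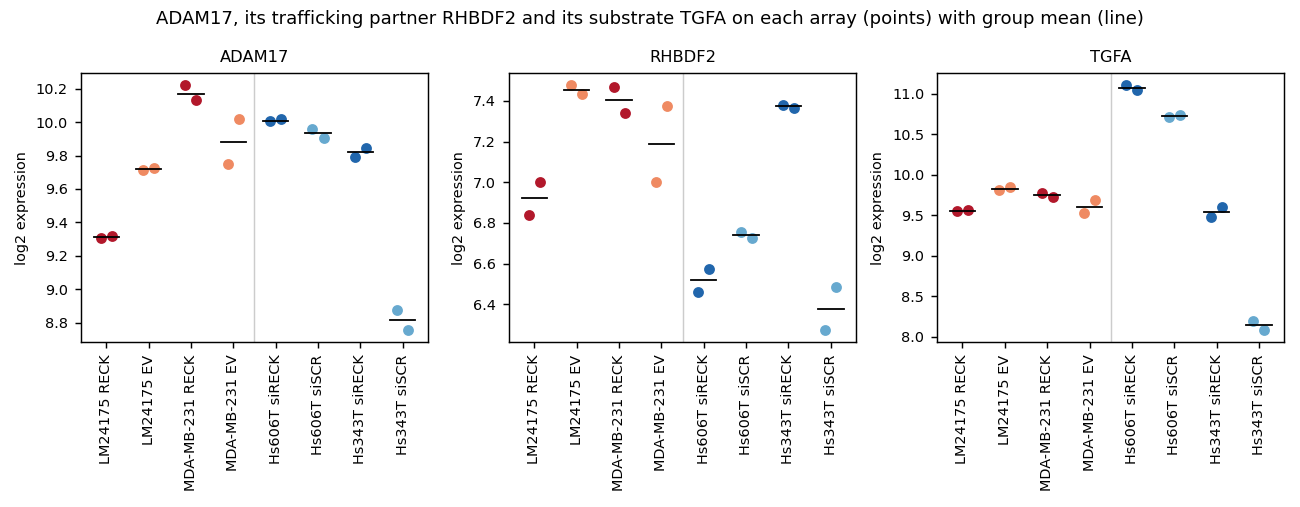
Log2 expression of ADAM17, RHBDF2 and TGFA by their brightest probe sets in 8 groups of 2 arrays, with axes that do not start at 0. Points are arrays and lines group means. In Hs343T the arrays labelled siRECK lie above those labelled siSCR for all 3 genes, and in LM24175 the construct arrays lie below the empty-vector arrays.

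Among 4 activating convertases, PCSK5 rose by 0.66 in Hs343T labelled siRECK (SE 0.17; adjusted p = 0.0127), a call lost without the first siSCR array (0.47, adjusted p = 0.128) or the first siRECK array (0.44, adjusted p = 0.137). Of 6 inhibitors (the 4 TIMPs, RECK and A2M) RECK alone passed, in both Hs lines. Of 6 EGF receptor ligands shed from the membrane, EGF fell by 0.65 on the log2 scale in LM24175 with the construct (SE 0.14; adjusted p = 0.0183), and in Hs343T TGFA rose while HBEGF fell by 0.31 on the log2 scale (SE 0.09; adjusted p = 0.0257). The HBEGF call was lost in the mean of its probe sets (-0.16, adjusted p = 0.100), and the EGF call without either empty-vector array or the second construct array (adjusted p from 0.0961 to 0.141). THBS2, a thrombospondin, was the member of 9 proteoglycans and thrombospondins to pass, at -0.41 in Hs343T (SE 0.14; adjusted p = 0.0473), a call lost without any 1 of the 4 Hs343T arrays (adjusted p from 0.101 to 0.197). ITGB3 was the member of 6 integrins to pass, at 0.46 in Hs343T (SE 0.13; adjusted p = 0.0187), where the probe sets of ITGB3 averaged 0.02. Of all genes, 27.8% passed in Hs343T, 0.97% in Hs606T and 5.37% in LM24175. In Hs343T, 1 passing gene in a list of 4 to 9 lies below the share over all genes, and the EGF receptor ligands lie near it.

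Of 5 procollagen genes, substrates of ADAMTS2 and ADAMTS3, 2 rose in LM24175 with the construct, where 5.37% of all genes passed. COL1A2, a chain of collagen I, read 7.12 and 7.33 with the construct and 4.80 and 5.24 with empty vector (log2 difference 2.20, SE 0.29; adjusted p = 0.0012). COL3A1, the collagen III chain, rose by 1.51 (SE 0.19; adjusted p = 0.001). Both are also on the fibroblast marker list, of which 2 of 12 rose in LM24175 and none fell. ADAMTS2 read 4.84 and 4.88 on the same construct arrays, against 4.89 and 4.49 with empty vector, and did not pass.

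Across the lines, the substrates and the proteases could be set side by side. All 9 proteoglycan and thrombospondin genes and all 5 procollagens were lower in the invasive lines (72.4% of all genes passed, 38.4% as lower), as were ADAMTS1, ADAMTS2 and ADAM12, while ADAMTS3, the other procollagen N-proteinase, was higher (2.32). VCAN, the versican gene and a substrate of ADAMTS1, was lower by a difference of -6.73 (SE 0.09; adjusted p = 1e-14) and COL3A1 by -10.2. All 6 EGF receptor ligands were higher, led by EREG at 4.86 (SE 0.12; adjusted p = 2.7e-12), as was ADAM8. Of the 6 inhibitors 4 were lower and 2 higher. TIMP1 (-1.93), TIMP2 (-1.42) and TIMP3 (-2.36), the TIMP known to act on ADAM17 and ADAMTS proteases, were lower. TIMP4 (2.13) and, by its brightest probe set, RECK (0.64, SE 0.11; adjusted p = 0.00027) were higher. The other RECK probe sets differed by -0.02 and -0.05. By the brightest one, Hs606T labelled siSCR lay 2.90 above Hs343T labelled siSCR. All 12 fibroblast markers were lower too, with a median difference of -6.84 and a log2 summed level of 14.2 to 14.4 in the invasive lines, against 16.2 to 16.9 in the Hs lines. Their part in the ADAM12, ADAMTS2 and ADAMTS1 differences was not tested.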

How the data were processed

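The authors deposited 1 log2 value for each probe set on each array, made with Partek per the submitters' processing notes. The sources used here do not name its version, summary or scaling, and no detection calls were used. Of 22277 probe sets, 62 controls were left out, and 19064 with exactly 1 symbol gave 11963 genes. A gene's main probe set was the one with the highest mean. The 22215 remaining probe sets entered 1 fit of 8 group means over 16 arrays in limma 3.58.1 (R 4.3.3; lmFit, contrasts.fit, eBayes), on 8 residual degrees of freedom plus 3.98 from the prior (residual SD 0.134 at the median). Tests of 9 comparisons were 2-sided with Benjamini-Hochberg adjustment over all probe sets, and the number of arrays limits their precision. The procedure was tested on simulated data. Tables used Python 3.11.15 with numpy 2.4.6 and pandas 2.3.3, and plots used matplotlib 3.10.9.

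The members and lists were chosen with earlier results of these data known. The text names all members, RECK, the largest passing difference in each direction of each list other than marker lists in a treatment comparison, and the 3 genes nearest in pattern to members spanning at least 2 log2 units. Further genes, chosen after their values were seen, are TSPAN14, ADAM10, ADAM23, ADAMTS5, COL3A1, VCAN, EREG, the TIMPs, CDH1 and the DCN levels. Same-numbered arrays of a line did not deviate together (correlations from -0.054 to 0.0056), so replicate numbers were not taken as pairs. Alternatives were quantile normalization, centring on array medians, 1 probe set per gene, the mean of its probe sets, leaving out the dimmest probe sets (a share of 0.25), a trended robust eBayes, a fit of only the arrays compared, a replicate block, a 1.5-fold minimum, leaving out both deviating arrays and leaving out each array.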

Additional observations from a re-analysis of the deposited data

Results flagged for a closer look

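Several responses differed between the 2 lines of one treatment by the test of the difference in the fit. Between the siRECK responses of Hs606T and Hs343T, Hs606T minus Hs343T, RECK differed by -3.07 by its brightest probe set. ADAM17 differed by -0.93, RHBDF2 by -1.22 and TGFA by -1.05. Each of these genes had the larger value in Hs343T. HBEGF differed by 0.42 there, at 0.11 in Hs606T (not passed) and -0.31 in Hs343T. This HBEGF call was kept in 4 of the 16 fits that left out 1 array, and was lost under quantile normalization (adjusted p = 0.0586), median centring (0.0577), the mean of probe sets (0.144, adjusted p = 0.355) and the replicate block (0.118). The interferon-stimulated genes named by the same rule differed by -4.29 (BST2), -4.8 (OAS1), -8.52 (CXCL11) and -4.8 (IFIT1).

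Between the construct responses of LM24175 and MDA-MB-231, LM24175 minus MDA-MB-231, ADAM17 differed by -0.7 and RHBDF2 by -0.75. With 1 array left out, ADAM17 ranged from -0.83 to -0.56 and RHBDF2 from -0.94 to -0.56. The ADAM17 call was kept in 12 of these 16 fits and the RHBDF2 call in 3. Both calls were lost with only the arrays compared (adjusted p = 0.154 and 0.196) and with the replicate block (0.102 and 0.132). In LM24175 both genes fell, while in MDA-MB-231 their differences of 0.29 and 0.22 did not pass. COL1A2 differed by 2.34, with a rise in LM24175 and a difference of -0.13 in MDA-MB-231. It ranged from 1.71 to 2.97 with 1 array left out, and the call was lost with only the arrays compared (adjusted p = 0.127), without the first MDA-MB-231 construct array (0.0537) and without the first LM24175 empty-vector array (0.0649). Without both deviating arrays the ADAM17 and RHBDF2 differences were -0.55 (adjusted p = 0.0536) and -0.48 (adjusted p = 0.17), and neither passed. None of the 15 member probe sets was among these results.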

How the results depend on the processing

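Of 135 pairs of member probe set and comparison, 25 passed and 13 of these passed under every alternative that gave a value. Over all alternatives, 3262 values kept their side of the threshold, 71 lost the call and 50 gained it. Of the 3262, 87 changed sign, none of them a called result. Of called results 1 changed sign: ADAMTS2 in Hs606T minus Hs343T, at -0.027 in the mean of its 2 probe sets, which disagree. In MDA-MB-231 the count of members was 1 in place of 0 without both deviating arrays. In LM24175 it was 2 in place of 1 with 1 probe set per gene, with their mean, without the dimmest probe sets and with trend and robust, and 0 with only the arrays compared. In Hs343T it was 2 in place of 1 without the dimmest probe sets and with trend and robust, 3 without both deviating arrays and 0 at a minimum of 1.5-fold. For LM24175 minus MDA-MB-231 it was 1 in place of 2 with only the arrays compared, and 3 under quantile normalization, with the mean of probe sets, without the dimmest probe sets and without both deviating arrays. For Hs606T minus Hs343T it was 5 in place of 8 with 1 probe set per gene, 4 with their mean, 5 with only the arrays compared and 3 at 1.5-fold. For invasive minus poorly invasive lines it was 8 in place of 13 in both settings with 9 features.

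Leaving out 1 array gave 0 to 1 members in MDA-MB-231, 1 to 2 in LM24175, 0 to 3 in Hs343T and 0 to 0 in Hs606T. It gave 0 to 2 and 0 to 1 in the differences between responses of the invasive and the Hs lines, 1 to 4 for LM24175 minus MDA-MB-231, 3 to 8 for Hs606T minus Hs343T and 12 to 13 for invasive minus poorly invasive lines. With the replicate block the counts were 0, 1, 1 and 0 in MDA-MB-231, LM24175, Hs343T and Hs606T, 7 for Hs606T minus Hs343T and 12 for invasive minus poorly invasive lines. The causes of these changes were not tested, apart from the fewer features or arrays some settings hold. For ADAMTS3 8 of 16 arrays and all 16 of ADAMTS6 lay below the lower quartile, which limits what those levels can show.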
